A study of Mus musculus with 6 samples.

Results

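The 10 genes described here handle iron and recycle heme in the liver. They are Hmox1, Blvrb, Slc40a1, Slc48a1, Slc11a1, Tfrc, Fth1, Ftl1, Hamp and Hpx. They were chosen by name, and each had its own symbol among the 19349 gene rows of the deposited single-cell tables. Their levels were followed across marker-defined Kupffer-like, non-Kupffer macrophage-like, endothelial-like and hepatocyte-like cells, and between vehicle-treated and ginkgetin-treated mice. The libraries came from liver non-parenchymal cells of male C57BL/6J mice that were 8 weeks old at the start and ate a high-fat diet (HFD) for 24 weeks, a model of nonalcoholic steatohepatitis (NASH). In the last 8 weeks the mice received vehicle (DMSO) or ginkgetin, a plant biflavone, at 10 mg/kg/day by the intragastric route, with 3 libraries per group. All 6 libraries share the diet, and no chow-fed library was analysed here. The labels do not say how many mice stand behind a library, so p-values measure the spread between these libraries.

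Liver macrophages clear aged red cells and the hemoglobin and heme that red cells release. Heme leaves the phagolysosome through SLC48A1 (HRG1), is opened by heme oxygenase 1 (HMOX1) to biliverdin, carbon monoxide and iron, and biliverdin is then reduced by the biliverdin reductases. The freed iron is stored in ferritin, made of FTH1 and FTL1 chains, or leaves the cell through ferroportin (SLC40A1). Hepcidin (HAMP), a peptide hormone made by hepatocytes, removes ferroportin from the cell surface, and sinusoidal endothelial cells secrete the BMP ligands that drive its transcription. Transferrin receptor (TFRC) takes up transferrin-bound iron, SLC11A1 (NRAMP1) moves iron out of the phagosome, and hemopexin (HPX) is the plasma scavenger of free heme.

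Ferritin, ferroportin and transferrin receptor transcripts carry iron-responsive elements (IREs), short hairpins bound by the iron regulatory proteins when iron is scarce. A hairpin in the 5′ untranslated region holds back translation, and hairpins in the 3′ untranslated region protect the transcript from decay. The elements are shown because they tie 4 members to the same control, and for Tfrc that control acts on the amount of transcript that a sequencing assay counts. A search for an unpaired C, 5 bases, CAGTGN and 5 bases that pair with the first ones (G with T allowed) found the letters in 4 of the 10 members. The same letters lie in 271 of 21877 genes with a protein-coding transcript (1.24%), in the 5′ region of 20 (0.0914%) and in the 3′ region of 118 (0.539%). Sequences are those of GENCODE transcripts on GRCm38, read 5′ to 3′ as DNA, with the loop letters in capitals. The Fth1 element lies in its 5′ untranslated exon at chr19:9982732-9982760 on the plus strand, that of Ftl1 at chr7:45459779-45459807 on the minus strand and that of Slc40a1 at chr1:45925465-45925493 on the minus strand. The Tfrc elements lie in the 3′ untranslated region on the plus strand, at chr16:32631219-32631247, chr16:32631598-32631626, chr16:32631663-32631691 and chr16:32631710-32631738.
Fth1 5′ element: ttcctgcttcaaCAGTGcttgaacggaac
Ftl1 5′ element: gtcttgcttcaaCAGTGtttgaacggaac
Slc40a1 5′ element: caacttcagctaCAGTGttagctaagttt
Tfrc 3′ element 1: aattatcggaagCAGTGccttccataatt
Tfrc 3′ element 2: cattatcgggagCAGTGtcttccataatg
Tfrc 3′ element 3: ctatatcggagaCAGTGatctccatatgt
Tfrc 3′ element 4: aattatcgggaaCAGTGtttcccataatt

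Libraries held between 13128697 and 61796882 counts of unique molecular identifiers (UMIs), with medians of 2397.5 to 8050 UMIs per barcode. A filter of 250 to 5000 genes and under 5% mitochondrial UMIs kept 27544 of 33168 barcodes. The methods of the study give that range in UMIs per cell, which would keep 16821 cells. The use of genes is a departure from them, and with the range in UMIs the calls of members in Kupffer-like and hepatocyte-like cells were lost. Of the 27544 cells kept, 2317 were Kupffer-like, 1647 non-Kupffer macrophage-like, 7246 endothelial-like and 571 hepatocyte-like, and 6502 cells stayed in clusters without a name. Replicates 1 and 2 of both groups share one type of barcode and gene set, replicate 3 of both another, and 16448 genes with UMIs in both were used. Levels are given as CPM, the UMIs of a gene per 1000 UMIs of its class in that library, times 1000. In such sums, fewer expressing cells and less RNA per cell cannot be told apart. Kupffer-like cells of the vehicle libraries had a median of 10074.5 UMIs and those of the ginkgetin libraries 2159.

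Transcripts for heme degradation and iron export were concentrated in Kupffer-like cells. These cells made up 8.41% of the kept cells, held 12.8% of all their UMIs (16.4% to 20.0% in vehicle and 2.12% to 6.94% in ginkgetin libraries) and held 57.4% of all Hmox1 UMIs, 69.1% of Slc40a1 UMIs, 43.0% of Blvrb UMIs, 43.1% of Slc11a1 UMIs and 32.2% of Tfrc UMIs. Mean Hmox1 was 1093 ± 311 CPM (SD, n = 6) in Kupffer-like cells, 248 ± 115 CPM (SD, n = 5) in non-Kupffer macrophage-like cells and 68.9 ± 14.6 CPM (SD, n = 6) in endothelial-like cells. The Hmox1 ranges of these classes did not overlap, whereas the classes after them, from stellate-like cells downward, overlapped their neighbours. Slc40a1 had the same leading order, with 1577 ± 863 CPM (SD, n = 6), 221 ± 187 CPM (SD, n = 5) and 172 ± 63.2 CPM (SD, n = 6), and here non-Kupffer macrophage-like and endothelial-like cells overlapped. Slc11a1 reached 277 ± 57.0 CPM (SD, n = 6) in Kupffer-like and 253 ± 34.0 CPM (SD, n = 5) in non-Kupffer macrophage-like cells, which overlapped. The next class in this order, dendritic-like cells, was at 10.9 ± 2.19 CPM (SD, n = 6). A named neutrophil-like class of 24 cells was left out of these orders. Over its pooled cells Hmox1 was at 363, Slc40a1 at 499 and Slc11a1 at 294 CPM, each above the mean of non-Kupffer macrophage-like cells. These orders cover named classes only, and clusters without a name held 21.1% of the Slc11a1 UMIs. Of these clusters, 2 had Chil3 and F13a1, genes of monocytes, among their leading genes.

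Ferritin was abundant in hepatocyte-like cells and in both macrophage classes. Fth1 averaged 12806 ± 5324 CPM (SD, n = 5) in hepatocyte-like, 10420 ± 3059 CPM (SD, n = 5) in non-Kupffer macrophage-like and 7912 ± 1854 CPM (SD, n = 6) in Kupffer-like cells. Neighbours in this order overlapped, and the same held for the top of the Ftl1 order. Blvrb, the flavin and biliverdin IX-beta reductase, was near 500 CPM in the same 3 classes, with class means of 440 to 591 CPM and overlapping ranges. Hepatocyte-like cells, 2.07% of the kept cells and 1.49% of their UMIs, held 76.9% of the Hamp UMIs and 70.8% of the Hpx UMIs. Hamp averaged 1191 ± 894 CPM (SD, n = 5) there and Hpx 1962 ± 1381 CPM (SD, n = 5). Outside hepatocyte-like cells, mean Hpx was at or under 14.0 CPM in every named class. Hamp was next highest in cholangiocyte-like cells, at 86.4 ± 84.3 CPM (SD, n = 6), and overlapped hepatocyte-like cells. There it stood at 5.83, 33.4 and 44.4 CPM in the vehicle libraries and at 92.0, 101 and 242 CPM in the ginkgetin libraries, on 7 to 164 UMIs, and this difference was not tested. Tfrc and Slc48a1 were spread over more classes, with means at or under 38.0 and 103 CPM and overlapping neighbours at the top of both orders.

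**Figure D1:**
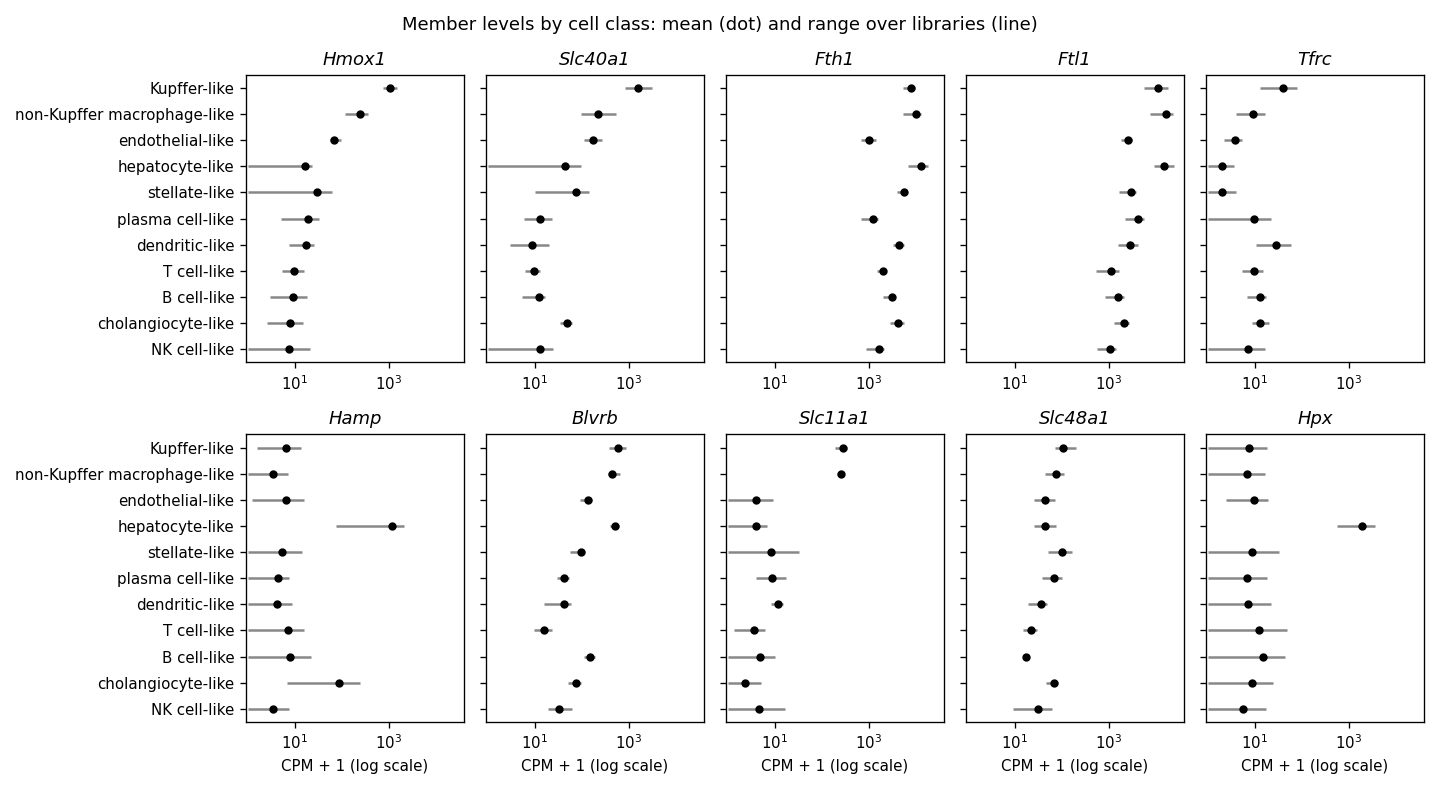
Levels of the 10 members in 11 cell classes, as CPM + 1 on a log axis, where the dot is the mean over the libraries and the line runs from the lowest to the highest library. Among these 11 classes, Hmox1 and Slc40a1 peak in Kupffer-like cells (1093 and 1577 CPM), Slc11a1 in both macrophage classes, and Hamp and Hpx in hepatocyte-like cells (1191 and 1962 CPM). A neutrophil-like class of 24 cells, with Slc11a1 at 294 CPM over its pooled cells, is not shown.

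The first comparison asked which members differed between vehicle and ginkgetin within Kupffer-like cells. Tfrc rose and Blvrb fell, each past an adjusted p of 0.05 and a 2-fold change, which is the rule for a call used throughout (edgeR's quasi-likelihood test, Benjamini-Hochberg over all genes tested). Both calls are to be read against a background in which 856 of 9055 genes, or 9.45%, were called in this class. Slc11a1 fell past the adjusted p but by less than 2-fold, and the remaining 7 members did not pass. The median fitted change of the 10 members was -0.44 on the log2 scale beside 0.04 for all genes tested. The groups drew on different sub-clusters of Kupffer-like cells, which were clustered without the members. Vehicle replicates 1 and 2 gave 685 and 396 cells of a sub-cluster led by Fabp7 and Folr2, and vehicle replicate 3 gave 346 cells of another led by Mmp12 and Clec4f. Ginkgetin replicates 1 and 2 gave 83 and 215 cells of a sub-cluster led by Cd163 and Cxcl13, and ginkgetin replicate 3 gave 484 cells of another led by Marco and C6. Treatment and sub-cluster therefore cannot be told apart here.

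The fitted folds are scaled by trimmed means (TMM), which centre most genes near 0. Scaling by total UMIs instead raised the median of all genes by 0.44 on the log2 scale in this class, so CPM ratios lie above the fitted changes. The number of calls moved from 856 to 1413 with it, and the share of called genes that were higher moved from 50.7% to 89.5%. No member other than Hamp changed its direction in Kupffer-like cells between these scalings.

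Tfrc, the importer of transferrin-bound iron, stood at 13.2, 12.2 and 21.2 CPM in vehicle replicates 1 to 3 and at 52.4, 52.0 and 77.2 CPM in ginkgetin replicates 1 to 3. Every ginkgetin library lay above every vehicle library, and the ratio of the group means was 3.90. The fitted change was 1.58 ± 0.24 (log2, SE; adjusted p = 0.00863, n = 3 per group). Within replicate 3 alone the log2 ratio of CPM + 1 was 1.81, and within replicates 1 and 2 it was 1.96. These levels rest on 13 to 153 UMIs per library. When the stated range was applied to UMIs rather than genes per cell, the change was 1.79 with an adjusted p of 0.0514, which ends the call. The summed erythroid marker list, 3 genes of red cell precursors that also use Tfrc, ran from 4.94 to 8.60 CPM in the vehicle libraries and stood at 931, 32.1 and 61.6 CPM in ginkgetin replicates 1 to 3. The list was higher in all 3 ginkgetin libraries, and its part in the Tfrc values was not tested.

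Slc40a1, the only known cellular iron exporter, stood at 843, 942 and 1054 CPM in the vehicle libraries and at 1954, 1556 and 3115 CPM in the ginkgetin libraries. The groups did not overlap and ginkgetin replicate 3 stood apart at the top. The fitted change of 0.80 ± 0.29 (log2, SE) did not pass, with an adjusted p of 0.103. Scaled by total UMIs, the change was 1.23 and was called (adjusted p = 0.0285). With the replicate number as a block it was 0.77 and passed the adjusted p of 0.05, at 0.0354, under 2-fold. Hmox1 stood at 788, 742 and 995 CPM against 1168, 1322 and 1541 CPM, again without overlap. Its fitted change of 0.28 ± 0.25 did not pass (adjusted p = 0.466). Slc48a1, which brings heme out of the phagolysosome, was at 70.8, 69.2 and 84.9 CPM against 72.5, 121 and 199 CPM, and ginkgetin replicate 1 overlapped the vehicle libraries. Its fitted change of 0.41 ± 0.27 did not pass (adjusted p = 0.326).

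Blvrb stood at 867, 756 and 699 CPM in the vehicle libraries and at 411, 433 and 378 CPM in the ginkgetin libraries. The groups were far apart and each was narrow, and the ratio of means was 0.526. Blvrb was also lower without overlap in B cell-like cells, at 190, 174 and 183 against 121, 130 and 112 CPM. In T cell-like cells its groups overlapped, and neither class was tested. In Kupffer-like cells the values of Blvrb were tested as follows. The fitted change was -1.33 ± 0.27 (log2, SE; adjusted p = 0.0194, n = 3 per group). The adjusted p rose to 0.0751 without vehicle replicate 1, to 0.0735 without vehicle replicate 2 and to 0.0521 without ginkgetin replicate 3, and to 0.127 with the range applied to UMIs, so each of these ends the call. Scaled by total UMIs the change was -0.92, under 2-fold, at an adjusted p of 0.0278. Slc11a1, the phagosomal iron transporter, stood at 334, 289 and 345 CPM against 246, 194 and 255 CPM. Its fitted change was -0.88 ± 0.23 (adjusted p = 0.0418).

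The ferritin chains were lower in the ginkgetin libraries without passing the test. Fth1 stood at 9295, 9333 and 9660 CPM in vehicle and at 7865, 5519 and 5800 CPM in ginkgetin libraries, and the groups did not overlap. Its fitted change was -0.94 ± 0.37 (log2, SE; adjusted p = 0.126). Ftl1 stood at 12327, 18437 and 12664 CPM against 8099, 9066 and 5607 CPM, also without overlap, with a fitted change of -1.31 ± 0.44 (adjusted p = 0.0796). With the replicate number as a block, Ftl1 was called at -1.33 (adjusted p = 0.00615), which made 3 members called, as the genes called in this class went from 856 to 1201. CPM did not overlap between the groups for 7 of the 10 members, beside 36.6% of all genes tested. Hamp (77 UMIs in all) and Hpx (149 UMIs) were at or under 16.8 CPM in each library, and neither passed (adjusted p = 0.978 and 0.629).

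**Figure D2:**
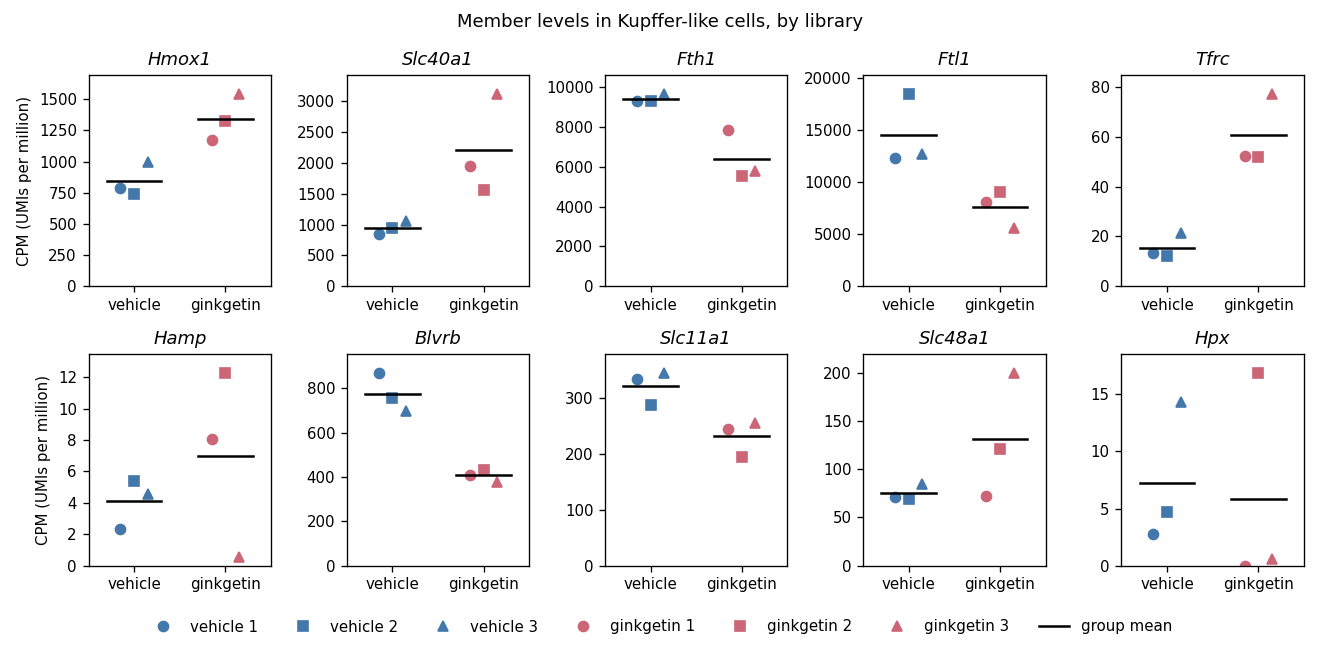
CPM of each member in Kupffer-like cells by library, with vehicle in blue, ginkgetin in red, a symbol per replicate number and a black line at the group mean. The groups do not overlap for Hmox1, Slc40a1, Fth1, Ftl1, Tfrc, Blvrb and Slc11a1, of which Tfrc and Blvrb were called.

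Shares of Kupffer-like cells with a UMI depended on depth, so each cell was thinned to 1000 UMIs, which left out 1 shallower cell of the vehicle and 58 of the ginkgetin libraries. After thinning, Slc40a1 was seen in 48.9%, 57.2% and 56.5% of vehicle cells and in 89.9%, 66.2% and 90.0% of ginkgetin cells. Hmox1 was seen in 40.5%, 41.3% and 44.8% against 56.2%, 50.9% and 60.8%, and Tfrc in 1.88%, 0.743% and 2.33% against 4.49%, 5.13% and 8.85%. Blvrb went the other way, with 52.2%, 47.3% and 46.4% against 34.8%, 32.9% and 28.5%, and so did Slc11a1, with means of 26.0% ± 3.69 and 19.9% ± 2.61 (SD, n = 3 each). Slc48a1 had means of 7.17% ± 1.39 and 13.5% ± 3.17 (SD, n = 3 each). For all 6 genes the libraries of the groups did not overlap, and the two-sided exact permutation p was 0.1, the smallest that 3 against 3 libraries can give. The share of all genes without overlap was not computed for thinned cells, and by CPM it was 36.6% in this class. The count is therefore not read as particular to these genes. Thinned further, to 500 UMIs, the libraries of Slc11a1 and Slc48a1 overlapped. Before thinning, Hmox1 was seen in 91.1% ± 6.77 of vehicle and 76.0% ± 4.39 of ginkgetin cells (SD, n = 3 each), Tfrc in 15.3% and 14.9%, Slc40a1 in 94.5% and 92.1% and Slc48a1 in 47.5% and 26.3%. The order thus turned with depth for these 4 genes, and the thinned order is that of the CPM. T cell-like cells, which should lack the macrophage genes and had medians of 3164 and 2881 UMIs in vehicle and ginkgetin libraries, gave thinned shares of 0.490% to 1.57% for Slc40a1 and 0.502% to 1.48% for Hmox1. Tfrc, which T cells can express, was seen in 0.342% to 1.1% of them.

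**Figure D3:**
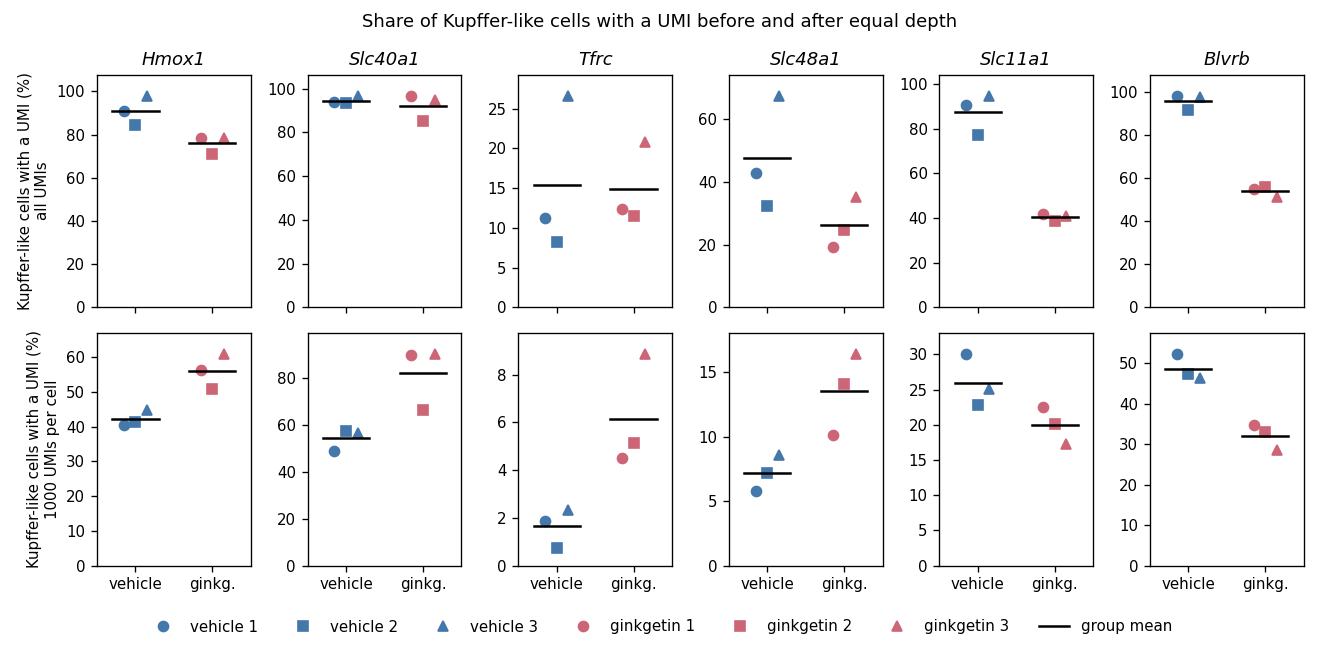
Percentage of Kupffer-like cells with at least 1 UMI of 6 members, in the upper row over all UMIs and in the lower row after thinning each cell to 1000 UMIs, by library, with a black line at the group mean. For Hmox1 the mean is 91.1% in vehicle and 76.0% in ginkgetin cells before thinning, and in the lower row every ginkgetin library lies above every vehicle library.

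Of 66 further genes of the pathway, chosen by role, 46 could be tested in Kupffer-like cells, of which 5 rose and 4 fell. These are 19.6% of the pathway genes tested, beside 9.45% of all genes tested. Their median fitted change was 0.26 (log2), beside 0.04 over all genes tested. The heme-degrading partners of the members fell: Hmox2, the constitutive heme oxygenase, by 1.09 on the log2 scale (adjusted p = 0.0302) and Blvra, the biliverdin IX-alpha reductase, by 1.16 (adjusted p = 0.0194). Among genes of heme synthesis, Alas1, the rate-limiting enzyme, fell by 1.51, whereas Fech, which inserts iron into the ring, rose by 1.22 and the mitochondrial iron importer Slc25a37 by 1.33. Mcoln1, a lysosomal cation channel, rose by 1.24, and Smad5, a transducer of BMP signals, by 1.27. Cd163, the scavenger receptor for hemoglobin-haptoglobin complexes, stood at 14.4, 24.6 and 5.55 CPM in vehicle and at 443, 381 and 557 CPM in ginkgetin libraries (fitted 4.54, adjusted p = 0.0054). That rise is not separate from the sub-clusters, since Cd163 is a leading gene of those that hold most ginkgetin cells. Spic, a macrophage factor induced by heme, changed by 0.54 (adjusted p = 0.242), its repressor Bach1 by 0.32 (adjusted p = 0.393), and the iron regulatory proteins Aco1 and Ireb2 by 0.56 and 0.63 (adjusted p = 0.145 and 0.192), none past the threshold. Ncoa4, the receptor for ferritin breakdown, gave 0.01 with an SE of 1.19. Its counts followed the barcode set, at 6.87 to 20.1 CPM in replicates 1 and 2 and at 206 and 233 CPM in replicate 3.

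The summed endothelial marker list, 8 genes, ran from 148 to 150 CPM in Kupffer-like cells of the vehicle libraries and stood at 451, 1338 and 557 CPM in ginkgetin replicates 1 to 3. Of the 15 marker lists, those of T cells (1.53 to 7.54 against 15.5 to 42.9 CPM), neutrophils (50.4 to 60.8 against 95 to 262 CPM), cholangiocytes (1.53 to 4.94 against 6.12 to 8.06 CPM) and erythroid cells were also higher in every ginkgetin library. The macrophage list was lower in every one, at 22288 to 26944 against 17353 to 22020 CPM. The part of these lists in the results was not tested.

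Non-Kupffer macrophage-like cells lay mostly in sub-clusters of 835 and 720 cells with Trem2 and Gpnmb among the leading genes. Another 92 cells, 90 of them of vehicle replicate 1, were in a sub-cluster led by Fcgr4 and Cd300e. The class was nearly all from vehicle libraries, with 584, 310 and 700 cells against 13 and 35 in ginkgetin replicates 1 and 3. Ginkgetin replicate 2 held 5 cells and was not used. None of the 10 members was called, and 17 of 9356 genes, or 0.182%, were called in all (1480 genes were at an unadjusted p under 0.05). Hmox1 stood at 357, 324 and 312 CPM in the vehicle libraries and at 126 and 119 CPM in the ginkgetin libraries, with 9 and 38 UMIs behind the latter. The groups did not overlap, and 2 ginkgetin libraries on so few UMIs do not measure the spread of that group. The fitted change of -1.87 ± 0.33 (log2, SE) missed the threshold (adjusted p = 0.0763). Slc40a1 stood at 93.7, 93.8 and 124 CPM against 533 and 262 CPM, with 38 and 84 UMIs behind the latter (fitted 1.47 ± 0.35, adjusted p = 0.143). With the replicate block, 272 genes and these 2 members were called, Hmox1 at -1.80 (adjusted p = 2.79e-05) and Slc40a1 at 1.36 (adjusted p = 0.00118). DESeq2 called 208 genes and the same 2 members, Hmox1 at -1.82 and Slc40a1 at 1.52. Tfrc was at 3.06 to 4.38 CPM in vehicle libraries and at 14.0 and 15.6 CPM in ginkgetin libraries, where it rests on 1 and 5 UMIs (adjusted p = 0.287). The summed endothelial list was at 45.2 to 76.6 CPM in vehicle and at 280 and 156 CPM in ginkgetin libraries, and the monocyte-derived list was also higher (492 to 628 against 897 and 1362 CPM), as was, narrowly, the B cell list. The Kupffer, hepatocyte and cholangiocyte lists were lower. The part of these lists in the values was not tested. Hamp and Hpx were at 0 UMIs in both ginkgetin libraries, where 3 UMIs would be 42.0 CPM in replicate 1 and 9.37 CPM in replicate 3. CPM did not overlap between the groups for 5 of the 10 members, these included, beside 38.1% of all genes tested.

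In endothelial-like cells none of the 9 members tested was called, beside 95 of 10117 genes, or 0.939%. At an unadjusted p under 0.05 there were 1468 genes. The exporter and the heme transporter had the smallest p among members. Slc40a1 stood at 118, 128 and 113 CPM in vehicle and at 190, 217 and 268 CPM in ginkgetin libraries, without overlap (fitted 0.72 ± 0.20, adjusted p = 0.174). Slc48a1 stood at 24.5, 32.4 and 30.2 CPM against 44.7, 60.3 and 70.3 CPM, also without overlap (fitted 0.84 ± 0.20, adjusted p = 0.109). After thinning, Slc40a1 was seen in 10.8% ± 1.83 and 19.7% ± 1.18 of cells (SD, n = 3 each) and Slc48a1 in 3.25% ± 1.44 and 5.52% ± 0.583, both with a two-sided exact permutation p of 0.1. Without thinning the shares of Slc40a1 were 33.7% ± 13.2 and 49.5% ± 21.1 and overlapped. With the replicate block, both genes passed the adjusted p (0.0193 for Slc40a1 at 0.74 and 0.0102 for Slc48a1 at 0.85) but stayed under 2-fold. The groups drew on different clusters: one led by Fabp4 and Lyve1 held 1003, 463 and 20 cells of the vehicle libraries against 15, 3 and 0 of the ginkgetin libraries. One led by Ehd3 and Gpr182 held 686 and 1859 cells of ginkgetin replicates 1 and 2, and one led by Wnt2 and Kit 519 and 1141, each with at most 16 cells of any vehicle library. Another, led by Bmp6, held 919 cells of ginkgetin replicate 3 against 8 of vehicle replicate 3. Treatment and cluster cannot be told apart in these values. Median depth was close here, at 2838 UMIs per cell in vehicle and 2595 in ginkgetin libraries. Groups did not overlap for 4 of the 10 members, beside 18.8% of all genes tested. Slc48a1 was also higher without overlap in T cell-like cells, at 18.9, 14.1 and 16.1 against 28.3, 24.4 and 21.9 CPM. In B cell-like cells its groups overlapped, and neither class was tested.

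Hmox1 went the other way in endothelial-like cells, with 93.9, 77.2 and 67.3 CPM against 53.8, 58.3 and 63.2 CPM (fitted -0.64 ± 0.23, adjusted p = 0.277). The summed macrophage list, 8 genes, was also lower there in the ginkgetin libraries, at 50.6 to 146 CPM against 176 to 341 CPM, as was Slc11a1, at 0 to 1.69 CPM against 3.62 to 8.18 CPM. The endothelial list itself was higher in every ginkgetin library, at 8680 to 10842 against 13225 to 17030 CPM, as were the dendritic and plasma cell lists. The part of these lists in the values was not tested. Under the same block, 443 genes were called and with them Slc11a1 at -2.63 (adjusted p = 0.0438) and Hamp at -2.51 (adjusted p = 0.0305), which rest on 61 and 107 UMIs. Slc11a1 and Hamp each passed the filter on low counts only through the vehicle libraries, so nothing is read from either call. Slc11a1 was at like levels in T cell-like cells (4.78, 4.53 and 5.13 against 0.36, 0.58 and 0.40 CPM) and in B cell-like cells (7.54, 4.45 and 9.05 against 0, 0.41 and 1.99 CPM), so nothing particular to endothelial-like cells is read from it. Hamp in endothelial-like cells was at 4.58, 14.7 and 7.24 against 1.06, 5.84 and 0.23 CPM, beside 3.72, 11.9 and 14.7 against 0.36, 5.81 and 0 CPM in T cell-like cells. The ferritin chains, Blvrb and Hpx did not pass (adjusted p from 0.512 to 0.995), and Tfrc had 70 UMIs and was not tested. Of the 48 other pathway genes tested none was called. Bmp2, the sinusoidal ligand that induces hepcidin, stood at 794, 950 and 943 CPM against 1650, 1201 and 2014 CPM (fitted 0.67, adjusted p = 0.298). Bmp6, its partner, followed the barcode set, at 0 to 3.09 CPM in replicates 1 and 2 and at 81.8 and 221 CPM in replicate 3, and was not tested. Lrp1, the hemopexin receptor, was at or under 12.1 CPM (adjusted p = 0.407). In a cluster led by Ednrb and Rapgef5, with Vwf among its leading genes, lay 371 of the 399 endothelial-like cells of vehicle replicate 3 and 174 of ginkgetin replicate 3.

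Hamp fell in hepatocyte-like cells. Hepatocytes are carried over in a non-parenchymal preparation, and the class held 45, 105 and 226 cells of vehicle replicates 1 to 3 and 12 and 183 cells of ginkgetin replicates 2 and 3, with none in ginkgetin replicate 1. Hamp stood at 2149, 1689 and 1623 CPM in the vehicle libraries and at 73.1 and 421 CPM in the ginkgetin libraries, on 451, 851 and 1875 UMIs against 3 and 177 UMIs. Both ginkgetin libraries were far under the lowest vehicle library. The exact 95% Poisson interval of the value from 3 UMIs is 15.1 to 214 CPM, which covers counting error only. The fitted change was -2.97 ± 0.60 (log2, SE; adjusted p = 0.0318, n = 3 and 2), and Hamp was the only member called among 7 tested, beside 152 of 4804 genes, or 3.16%. Within replicate 3, which holds most of the cells, the log2 ratio of CPM + 1 was -1.94. Relative to albumin, the main hepatocyte transcript, there were 108, 138 and 170 Hamp UMIs per 1000 Alb UMIs in the vehicle libraries and 5.21 and 34.1 in the ginkgetin libraries, so the order held against an internal transcript. After thinning, Hamp was seen in 48.9%, 45.7% and 37.5% of vehicle cells and in 0% and 19.7% of ginkgetin cells (two-sided exact permutation p = 0.2, the smallest possible). Thinning left out 10 vehicle and 46 ginkgetin cells.

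The Hamp call depended on the settings. The adjusted p was 0.084 without vehicle replicate 1, 0.119 without vehicle replicate 2, 0.235 with the range applied to UMIs, 0.180 without the cells of highest doublet score, 0.880 when cells were gated by markers and 0.0518 with total-UMI scaling, while the change stayed between -2.09 and -2.92 in these settings. Leaving out the cells of highest doublet score left 3 cells in vehicle replicate 1, so that setting also lost this library. The summed endothelial list was at 186, 37.7 and 222 CPM in vehicle libraries and at 2072 and 2248 CPM in ginkgetin libraries. The B cell and dendritic lists were also higher there and the macrophage and monocyte-derived lists lower, all at or under 719 CPM. The part of these lists in the result was not tested. Hamp2, a close paralog of Hamp with which reads may be shared, was at 110, 173 and 438 CPM against 0 and 81.0 CPM (fitted -2.23, adjusted p = 0.118).

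Hpx did not pass the test. It stood at 3268, 899 and 1490 CPM in vehicle and at 3583 and 569 CPM in ginkgetin libraries, so the groups overlapped (fitted -0.24 ± 0.72, adjusted p = 0.860). The higher ginkgetin value is that of replicate 2, with 12 cells, and within replicate 3 the log2 ratio of CPM + 1 was -1.39, with 156 and 46.1 Hpx UMIs per 1000 Alb UMIs in vehicle and ginkgetin. Slc40a1 was at 0, 23.8 and 17.3 CPM against 97.5 and 81.0 CPM, on 0 to 20 UMIs in vehicle and 4 and 34 UMIs in ginkgetin libraries (fitted 2.13 ± 0.73, adjusted p = 0.128). With the replicate block 445 genes were called, and Slc40a1 was called at 1.91 (adjusted p = 0.0311) beside Hamp. Slc40a1 passed the filter on low counts only through the ginkgetin libraries, so nothing is read from its call. Fth1 stood at 18180, 18004 and 12913 CPM against 7946 and 6986 CPM (fitted -1.46 ± 0.47, adjusted p = 0.115), without overlap, and Ftl1 changed by -1.0 ± 0.51 (adjusted p = 0.247). CPM did not overlap for Slc40a1, Fth1 and Hamp, 3 of the 10 members, beside 44.4% of all genes tested. Of 34 other pathway genes tested, 1 was called, or 2.94% beside 3.16% of all genes tested, a share near the background. It was Bmp2, at 19.1, 0 and 13.8 CPM against 97.5 and 238 CPM on 0 to 16 and 4 and 100 UMIs (fitted 3.90, adjusted p = 0.0319), a gene at 794 to 2014 CPM in endothelial-like cells. Bmp2 passed the filter on low counts only through the ginkgetin libraries, so that it had to differ, and nothing is read from this call. Plasma proteins that carry iron or heme gave no call: transferrin (Trf) changed by -0.13, haptoglobin (Hp) by -0.46 and ceruloplasmin (Cp) by 1.77 (adjusted p = 0.189). Tfr2, a sensor upstream of hepcidin, changed by 1.82 (adjusted p = 0.131) on 40 UMIs and likewise passed the filter only through the ginkgetin libraries, and Hfe2, the hemojuvelin gene, by 0.34 on 60 UMIs.

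**Figure D4:**
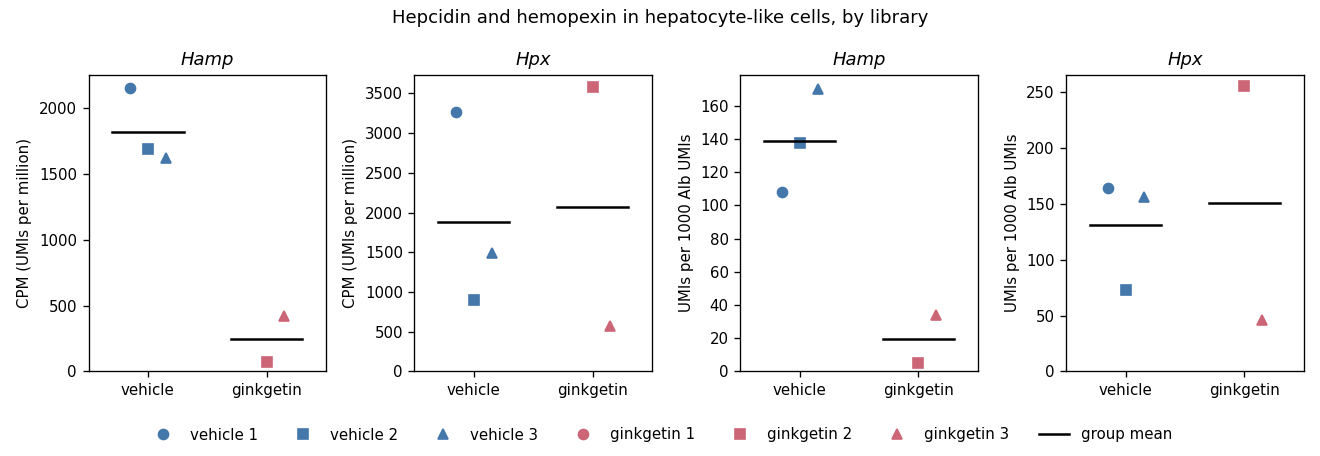
Hamp and Hpx in hepatocyte-like cells by library, in CPM and in UMIs per 1000 Alb UMIs, with a black line at the group mean and no point for ginkgetin replicate 1, which held no such cells. Both ginkgetin libraries lie under all vehicle libraries for Hamp (73.1 and 421 against 1623 to 2149 CPM), and the groups overlap for Hpx.

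**Figure D5:**
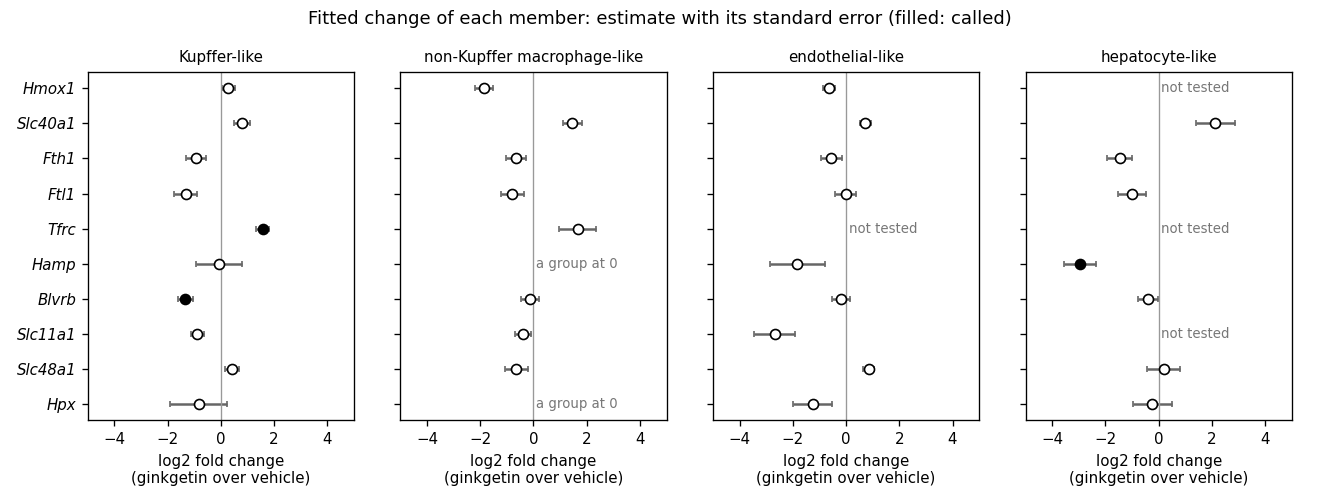
Fitted log2 fold change of ginkgetin over vehicle for each member in 4 classes, with bars of 1 SE. Filled points were called, namely Tfrc and Blvrb in Kupffer-like and Hamp in hepatocyte-like cells, and no fold is drawn where a group was at 0 or a member was not tested.

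The plot of fitted changes shows members on opposite sides of 0 in different classes, and the differences themselves were tested in the same libraries. Against its change in Kupffer-like cells, the change of Hmox1 in non-Kupffer macrophage-like cells was lower by 2.11 ± 0.31 on the log2 scale (adjusted p = 1.2e-06, 5 libraries). That of Blvrb was 1.23 ± 0.26 higher in non-Kupffer macrophage-like cells and 1.35 ± 0.24 higher in endothelial-like cells (adjusted p = 0.0011 and 0.00314). The change of Blvrb was thus lower in Kupffer-like cells than in these classes, where it was not called (fitted -0.12 and -0.18). No member differed in its change between hepatocyte-like and Kupffer-like cells at an adjusted p under 0.05, and for Hamp the difference was -2.99 (adjusted p = 0.178).

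Over 65 sums of a class in a library, the genes most like Slc40a1 by Spearman correlation of log2(CPM + 1) were Rin2 (0.87), Acp2 (0.85), Lamp1 (0.84), Atp6ap1 (0.84) and Hpgd (0.83), out of 6673 genes. Those most like Hmox1 were Lgmn (0.82), Ifi207 (0.82), Ctsb (0.80), Sh3glb1 (0.79) and Clec1b (0.78). Slc40a1 and Hmox1 correlated with each other at 0.65. The sums share libraries and depths, so these values are descriptions.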

How the data were processed

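The authors deposited 1 table of raw UMI counts per library, genes by barcodes, from 10x Genomics Chromium libraries of liver non-parenchymal cells. Per the submitters' processing notes the build is GRCm38 (mm10), and the aligner is not given in the sources used here. Barcodes had 501 or more genes, and 0 to 85 were shared by any 2 libraries. The methods of the study state a range of 250 to 5000 UMIs per cell. The main filter departs from this and applied the range to genes per cell, with under 5% mitochondrial UMIs, and the range in UMIs was an alternative, which kept 16821 cells. The deposited counts of 300 pairs of symbols were merged through RefSeq synonyms.

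Cells were normalized to 10000 UMIs and clustered with scanpy 1.11.5 and leidenalg 0.10.2 (2000 variable genes, 30 components, 15 neighbours, resolution 1 and 0.5 for sub-clusters), without the members or the pathway list, so cell names are rebuilt and can differ from those of the study. Clusters were named from at least 3 markers, and macrophage-like sub-clusters without 3 Kupffer markers formed the non-Kupffer class. Scrublet called 0.0286% to 0.192% of cells at an expected 6%, so it did not work and no cell was removed. An alternative left out the 5% of highest score. Counts were summed per library and class (10 or more cells) and tested in R 4.3.3 with edgeR 4.0.16 (TMM, filterByExpr, quasi-likelihood, Benjamini-Hochberg over all genes), with DESeq2 1.42.0 as an alternative. The test of differences between classes had library, class and treatment within class as terms. Shares were tested with SciPy 1.17.1. The text names all 10 members, the pathway genes that were called and chosen partners by role, and the 5 genes most like Slc40a1 and Hmox1 at a mean of at least 50 CPM. Of the called pathway genes, 1 is not reported here. Hamp2 was added as a paralog of Hamp after its values were seen. Members and lists were chosen with earlier results of these data known. Fits were tested on simulated data.

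The labels number replicates 1 to 3 in both groups. Deviations from the group means correlated between same-numbered libraries at 0.170, 0.174 and 0.521 in Kupffer-like and at 0.438, 0.353 and 0.776 in endothelial-like cells. The main fits had no block, and the replicate number was a block in an alternative only. Replicates 1 and 2 also correlated across numbers (0.138 to 0.407), and they share a barcode set. A pairing by number can therefore not be told apart from the barcode set.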

Additional observations from a re-analysis of the deposited data

Results flagged for a closer look

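These members changed by different amounts in Kupffer-like cells and in another class, in a test of the difference itself, which 3.11% of all genes passed for non-Kupffer macrophage-like and 11.3% for endothelial-like cells, at an adjusted p under 0.05. All differences are on the log2 scale, the change in the other class minus that in Kupffer-like cells. For Hmox1 in non-Kupffer macrophage-like cells the difference was -2.11 (adjusted p = 1.2e-06) and lay between -2.34 and -2.04 in the alternatives. For Blvrb it was 1.23 in non-Kupffer macrophage-like cells (adjusted p = 0.0011) and 1.35 in endothelial-like cells (adjusted p = 0.00314), and it kept its side of the threshold in the alternatives tried. For Ftl1 in endothelial-like cells it was 1.5 (adjusted p = 0.00175). For Slc48a1 in non-Kupffer macrophage-like cells it was -1.35 (adjusted p = 0.0207), and without ginkgetin replicate 3 it turned to 0.49 (adjusted p = 0.870), so it rests on that library. For Tfrc in endothelial-like cells it was -2.04 (adjusted p = 0.0308), on 70 UMIs in that class, and the adjusted p lay between 0.0559 and 0.136 in 5 of 7 alternatives. Kupffer-like cells of both groups lie in different sub-clusters and differ in depth, and the part of either in these differences was not tested.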

How the results depend on the processing

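The fits were repeated with other cell and gene filters, scalings, tests, blocks, cell assignments and with each library left out in turn. Scaling by total UMIs, the treatment of clusters with Vwf among their leading genes and the test of differences between classes were chosen after seeing the data. Where leaving out a library left 1 in a group, the fit assumes that it varies like the others. Causes of the changes below were not tested.

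In Kupffer-like cells the change of Tfrc lay between 1.38 and 2.0 in 18 alternatives and was called in 17, and that of Blvrb between -1.49 and -0.92 and was called in 13. The 856 genes called became 1397 without a gene filter, 1413 with total-UMI scaling, 1289 with a term for the barcode set and 66 with the range applied to UMIs, where 0 members were called. Without 1 library, 238 to 1342 genes and 1 to 3 members were called (257, 238 and 1342 genes without vehicle replicates 1, 2 and 3, and 256 without ginkgetin replicate 3). In non-Kupffer macrophage-like cells the 17 genes and 0 members became 231 and 2 without a gene filter, 208 and 2 with DESeq2, 319 and 2 with the barcode-set term, 37 and 1 from replicates 1 and 2 alone, and 1375 and 2 when all macrophage-like cells were pooled. The marker gate gave 7 genes, and with the range applied to UMIs no value could be had for this class. Without 1 library, 0 to 99 genes and 0 to 1 members were called (99 without vehicle replicate 3 and 0 without either ginkgetin library). In endothelial-like cells the 95 genes and 0 members became 33 genes with total-UMI scaling, 293 and 1 with DESeq2, 457 and 1 with the barcode-set block, 355 genes in replicates 1 and 2 alone and 42 with the marker gate. Without 1 library, 0 to 42 genes and 0 members were called, and each of the 6 libraries moved the count of genes by over 1.5 times. In hepatocyte-like cells the 152 genes and 1 member became 452 and 2 without a gene filter, 285 and 2 with the barcode-set block, 17 and 0 without the cells of highest doublet score (and so without vehicle replicate 1), 1 and 0 with the range applied to UMIs, and 0 and 0 with the marker gate. There DESeq2 called 130 genes and 2 members, and total-UMI scaling 139 genes and 0 members. Without 1 library, 0 to 346 genes and 0 to 1 members were called (2, 0 and 346 genes without vehicle replicates 1, 2 and 3, and 7 without ginkgetin replicate 3).

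With the replicate block, 1201 genes and 3 members were called in Kupffer-like, 272 and 2 in non-Kupffer macrophage-like, 443 and 2 in endothelial-like and 445 and 2 in hepatocyte-like cells. The block ended no call of a member. Of the members called with it, Slc40a1 in hepatocyte-like cells and Slc11a1 and Hamp in endothelial-like cells passed the filter on low counts only through the group where they were higher. Ftl1 in endothelial-like cells, at -0.01, was 0.0059 with it.

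Other changes of direction were in members that did not pass. Hamp in Kupffer-like cells was 0.38 with total-UMI scaling, 0.20 with DESeq2, 1.26 in replicates 1 and 2 alone, 0.025 with the members in the clustering and -1.72 to 1.09 with a library left out, and Hpx there -4.30 to 0.29 with a library left out. In non-Kupffer macrophage-like cells Blvrb was 0.28 with total-UMI scaling, 0.29 in replicates 1 and 2 and -0.67 to 0.28 with a library left out, Slc11a1 0.024 with total-UMI scaling, and Slc48a1 0.11 in replicates 1 and 2 and -1.25 to 0.19 with a library left out. Over all macrophage-like cells pooled, Hmox1 was 0.57 and Slc48a1 0.30. In endothelial-like cells Ftl1 was 0.16 with total-UMI scaling, 0.021 without a gene filter, 0.014 without a cell filter, 0.026 with the marker gate, 0.0023 with the unnamed cluster that has Vwf among its leading genes and -0.26 to 0.29 with a library left out. Blvrb there was 0.0065 with total-UMI scaling and -0.46 to 0.066 with a library left out. In hepatocyte-like cells Slc48a1 was -0.22 without a gene filter, -0.22 without a cell filter, -0.15 with the marker gate and -0.25 to 0.92 with a library left out. Hpx there was 0.13 with total-UMI scaling, 0.71 in replicates 1 and 2, 0.67 without high doublet scores and -2.18 to 0.68 with a library left out. The difference between classes for Slc48a1 in non-Kupffer macrophage-like cells was -1.93 to 0.49 with a library left out.

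Without thinning, the difference in the share of Kupffer-like cells was -15.1 percentage points for Hmox1, -2.32 for Slc40a1, -0.45 for Tfrc and -21.2 for Slc48a1. Depth limits the precision of Tfrc in Kupffer-like cells, with 13 UMIs in ginkgetin replicate 1. In simulated counts, changes of 1 on the log2 scale were called in 14.1% of genes in Kupffer-like, 0% in non-Kupffer macrophage-like, 9.38% in endothelial-like and 3.75% in hepatocyte-like cells, and changes of 2 in 78.7%, 25.3%, 87.0% and 43.2%, in the same order. The rule for a call asks for over 2-fold, so a true change of 1 lies on its threshold. The simulation used a fixed dispersion and not the spread of these libraries, so its rates are not the power of these data.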

Other observations

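In the other pathway genes of non-Kupffer macrophage-like cells, 1 of 47 tested was called, beside 0.182% of all genes tested. Cd163, the hemoglobin-haptoglobin receptor, was at or under 0.677 CPM in the vehicle libraries and at 168 and 62.5 CPM in ginkgetin replicates 1 and 3, on 39 UMIs in all (adjusted p = 0.00171). It passed the filter on low counts only through the ginkgetin libraries, so that it had to differ, and nothing is read from the call or the count. The class was clustered apart from Kupffer-like cells, and its Kupffer marker list of 6 genes was at 1098, 1335 and 1428 CPM in vehicle and at 953 and 422 CPM in ginkgetin libraries, against 8360 to 16541 CPM in Kupffer-like cells.

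Hamp and Hpx UMIs were also seen at low level in cells of other classes. In T cell-like cells thinned to 1000 UMIs, Hamp was seen in 0.371%, 1.63% and 2.24% of vehicle and in 0%, 0.171% and 0% of ginkgetin cells, and Hpx in 0.278%, 0.980% and 3.85% against 0%, 1.03% and 0%. In Kupffer-like and endothelial-like cells thinned in the same way Hamp was seen in 0% to 1.78% of cells.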
